A study of Mus musculus with 30 samples.

Results

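The genes described here were on at an intermediate step of chemical reprogramming and under 1 FPKM at its start and its end. Each was at 10 FPKM or more in cells on day 6 of stage III (RNA-Seq_SIII D6). Each was also under 1 FPKM in mouse embryonic fibroblasts (RNA-Seq_MEFs), in XEN-like cells, in a chemically induced pluripotent line (RNA-Seq_CiPSCs#1) and in embryonic stem cells (RNA-Seq_ESCs). FPKM scales the fragments of a gene to its length and to the total of the library, so levels of different genes can be set side by side. Symbols of the large placental families, of unnamed gene models and of pseudogenes with "-ps", and symbols on more than 1 row, were left out. The rule kept 65 of 35275 entries of the table, and 26 more entries met the FPKM thresholds but were left out by symbol. Because those 5 libraries chose the genes, their values are given as a description, and the comparisons that carry the results use the other 9 bulk libraries.

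The study followed mouse fibroblasts that small molecules turn into pluripotent cells, in 30 samples of which 14 were bulk RNA-seq libraries, 12 single-cell libraries and 4 bisulfite libraries. Neither the single-cell nor the bisulfite data were used. With 1 library for each bulk group, differences between groups cannot be set against replicates, and none carries a p-value. The intermediate libraries from stage II day 12 were cells sorted as OG+PDGFRAlow/-PECAM- (OG+ cells below), unsorted cells of the N2B27-SII condition (N2B27 cells) and unsorted cells of the FBS/KSR-SII condition (FBS/KSR cells). N2B27 cells had been replated on a feeder layer of mitomycin C-treated fibroblasts, and the labels give no medium for the OG+ cells. A further stage II day 12 pair, pZscan4c-Em+ and pZscan4c-Em- (Em+ and Em- cells), was sorted by a Zscan4c reporter from XEN-like cells that had been derived from reporter embryonic stem cells of a 129S6/SvEvTac x C57BL/6Ncr strain. Stage III gave cells of day 4 with Opt. VPA and without it (control cells), and cells of days 6, 15 and 21; VPA is valproic acid, a histone deacetylase inhibitor. The labels do not say which stage II condition the stage III cells came through. Of the libraries that the rule kept under 1 FPKM, fibroblasts came from E13.5 embryos. XEN-like cells were a purified line kept in stage I medium with bFGF, and the CiPSC line is a single line grown on feeders in 2iL. The embryonic stem cells, of an ICR x ICR background and from E3.5 embryos, were also grown on feeders in 2iL. All other libraries shared the strain C57BL/6J-Tg(GOFGFP)11Imeg/RbrcxICR, and by the protocol in the labels the intermediates made from fibroblasts, on both sides of each comparison, had all been through stage I and stage II media.

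Chemical reprogramming passes through cells that resemble extraembryonic endoderm, the yolk sac lineage of the embryo, before pluripotency genes come on. The other extraembryonic lineage, the trophoblast, forms the placenta and is set up by transcription factors such as Cdx2, Elf5 and Hand1. Rodent placentas also use clusters of duplicated genes for secreted hormones, cysteine proteases and protease inhibitors, and the trophoblast layer carries many transporters found in gut and kidney epithelium.

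Recovered depth ran from 6601290 to 15294927 reads a library. The labels were checked against textbook markers. Col1a1 stood at 9144 FPKM in fibroblasts, Gata4 at 886 in XEN-like cells, and Nanog at 364 in CiPSCs and 518 in embryonic stem cells. In the sorted cells the gate was visible, with Pdgfra at 17.8 FPKM in OG+ cells and 77.9 in N2B27 cells. In the reporter pair, 12 genes of the 2-cell embryo summed to 6177 FPKM in Em+ cells and 227 in Em- cells. Genes encoded by mitochondrial DNA took 4.29% of reads in Em+ cells and 7.28% in Em- cells, more than the 0.766% to 2.43% of the other 12 libraries. In bulk samples, fewer cells of a type and less RNA per cell cannot be told apart, and this holds for every value below.

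Of the 65 genes, 63 matched a RefSeq entry by symbol and Ttc18 matched by its synonym, while RP23-8J15.4 had no match. They lay on 19 chromosomes, 10 of them on chromosome 11 and 11 on chromosome 13. In the order of protein-coding genes, 13 of them sat in 9 pairs with at most 1 such gene between. With none between, the longest run was 4 genes on chromosome 11. BC053393 (46571513 to 46589232), Dppa1 (46607010 to 46629274), Timd2 (46668960 to 46707107) and Havcr1 (46739822 to 46779578) followed each other with no other protein-coding gene between (GRCm38.p6). BC051665, the gene with the highest level on day 6, lies on chromosome 13 at 60781887 to 60786364. The 250 bases upstream of 1 annotated start of each of these 5 genes, from RefSeq (GRCm38.p6), are shown because BC051665 gave the highest levels and the other 4 form the longest run with no protein-coding gene between. Havcr1 has 3 promoter entries and Timd2 has 2, of which the 1 nearest the gene's 5′ end is shown. For Havcr1 this window lies inside the span given above, downstream of its outermost start. They run 5′ to 3′ in the direction of transcription, and capitals mark matches to the motifs named further on.
BC051665 (chr13:60786365-60786614, minus strand): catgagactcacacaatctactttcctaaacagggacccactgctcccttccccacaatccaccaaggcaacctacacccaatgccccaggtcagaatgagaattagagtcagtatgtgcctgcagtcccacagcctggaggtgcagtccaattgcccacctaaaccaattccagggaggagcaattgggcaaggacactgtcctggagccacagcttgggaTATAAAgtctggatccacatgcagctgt
BC053393 (chr11:46571263-46571512, plus strand): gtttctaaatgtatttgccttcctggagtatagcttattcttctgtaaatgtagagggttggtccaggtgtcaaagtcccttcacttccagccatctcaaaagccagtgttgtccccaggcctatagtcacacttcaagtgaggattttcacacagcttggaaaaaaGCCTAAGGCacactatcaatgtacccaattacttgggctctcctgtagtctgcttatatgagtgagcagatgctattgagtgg
Dppa1 (chr11:46629275-46629524, minus strand): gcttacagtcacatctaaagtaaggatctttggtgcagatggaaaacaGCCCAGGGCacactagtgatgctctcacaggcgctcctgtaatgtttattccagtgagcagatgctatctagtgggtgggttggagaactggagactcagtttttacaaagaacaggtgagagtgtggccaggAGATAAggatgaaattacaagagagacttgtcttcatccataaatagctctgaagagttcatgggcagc
Timd2 (chr11:46707105-46707354, minus strand): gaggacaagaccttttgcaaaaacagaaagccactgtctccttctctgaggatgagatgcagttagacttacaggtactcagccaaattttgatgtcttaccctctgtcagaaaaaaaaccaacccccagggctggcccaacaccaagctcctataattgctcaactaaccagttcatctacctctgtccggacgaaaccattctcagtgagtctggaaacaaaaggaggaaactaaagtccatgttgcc
Havcr1 (chr11:46739973-46740222, plus strand): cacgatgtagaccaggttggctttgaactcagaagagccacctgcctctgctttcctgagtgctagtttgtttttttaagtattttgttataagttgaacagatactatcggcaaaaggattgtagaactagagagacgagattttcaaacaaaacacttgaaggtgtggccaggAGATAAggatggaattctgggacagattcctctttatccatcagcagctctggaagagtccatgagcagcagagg
The BC051665 sequence held the TATA box letters TATAAA starting 28 bases before the start. Dppa1 and Havcr1 each held the GATA site letters AGATAA, 69 and 75 bases before the start used, inside a shared stretch of 22 bases, gtgtggccaggagataaggatg. BC053393 and Dppa1 shared a stretch of 16 bases, agtgagcagatgctat, and each held a TFAP2 site match (GCCNNNGGC), 83 and 202 bases before the start. In the whole table of 32851 promoter entries, each of these stretches was found in those 2 genes and in no other. Timd2 had no match to any motif searched.

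Another group of members lies on chromosome 13, where Serpinb9b, Serpinb9c, Serpinb9e, Serpinb9f and Serpinb9g are spread over 468.6 kb (33027414 to 33496002). They encode relatives of Serpinb9, the inhibitor of granzyme B. Upstream sequences of 3 of them are shown because they are near copies, which bears on how their reads can be counted.
Serpinb9e (chr13:33249358-33249607, plus strand): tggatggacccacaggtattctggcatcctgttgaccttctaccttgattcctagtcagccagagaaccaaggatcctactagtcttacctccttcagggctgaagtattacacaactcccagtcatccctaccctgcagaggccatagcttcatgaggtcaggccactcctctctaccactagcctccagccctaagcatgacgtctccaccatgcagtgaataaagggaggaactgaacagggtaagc
Serpinb9f (chr13:33323827-33324076, plus strand): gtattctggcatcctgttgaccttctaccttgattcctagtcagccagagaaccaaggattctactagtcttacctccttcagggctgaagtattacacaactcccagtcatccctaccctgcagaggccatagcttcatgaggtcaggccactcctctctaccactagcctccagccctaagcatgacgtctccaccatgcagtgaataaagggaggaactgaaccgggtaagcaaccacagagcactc
Serpinb9g (chr13:33484540-33484789, plus strand): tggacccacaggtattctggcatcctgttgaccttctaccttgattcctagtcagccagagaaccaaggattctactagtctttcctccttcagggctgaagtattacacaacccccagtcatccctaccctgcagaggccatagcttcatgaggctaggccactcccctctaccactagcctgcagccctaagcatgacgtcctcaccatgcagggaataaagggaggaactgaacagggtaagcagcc
Without gaps, Serpinb9e and Serpinb9f were identical at 99.1% of 235 overlapping bases. The identity was 95.9% over 246 bases for Serpinb9e and Serpinb9g, and 95.4% over 239 bases for Serpinb9f and Serpinb9g. Where the transcripts are as alike as these sequences, the division of reads among the 3 genes is uncertain, so their values are best read together. No motif searched was found in these windows.

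Promoters were at hand for 46 of the 65 genes, and their 250 bases before the start were searched for 7 motifs on both strands. AGATAA was found in 15.2% of these genes, against 9.99% of all promoter entries. The TEAD site GGAATG was found in 17.4% of these genes and 12.6% of all entries, GCCNNNGGC in 17.4% of these genes and 13.7% of all entries, and TATAAA in 15.2% of these genes and 12.4% of all entries. The interferon element (GAAA, any 2 bases, GAAA) was found in 4.35% of these genes and 2.98% of all entries, the E-box CACGTG in 6.52% of these genes and 6.02% of all entries, and the AP-1 site TGANTCA in 10.9% of these genes and 6.75% of all entries. Some genes had several promoter entries, of which 1 with a match was enough, and the 46 genes had 54 entries in all. A match is a description of letters and not a binding site.

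Where the rule did not choose, the 65 genes were detected to very different degrees. At 1 FPKM or more stood 63 of them in OG+ cells, 48 in N2B27 cells and 55 in FBS/KSR cells. On day 4 of stage III, 53 were detected in Opt. VPA cells and 53 in control cells. Detection covered 60 genes on day 15 and 48 on day 21. The reporter pair had the fewest, 32 in Em+ cells and 30 in Em- cells. Over all entries of the table, the share at 1 FPKM or more moved little, between 35.2% and 38.2% in the 10 intermediate libraries.

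Median levels of the 65 genes were 27.3 FPKM in OG+ cells, 4.37 in N2B27 cells and 6.63 in FBS/KSR cells. They were 3.89 in Opt. VPA cells and 6.04 in control cells, and 20.1, 8.82 and 2.62 at days 6, 15 and 21 of stage III. Em+ and Em- cells had medians of 0.987 and 0.914. So OG+ cells of stage II, which took no part in the choice, had a higher median than the day 6 library that chose the genes. Because the rule used day 6, this and the next counts are a description only. Of the 65, 38 were higher in OG+ cells than at day 6, and 33 had their highest value of all 14 libraries in OG+ cells, against 13 at day 6. A further 8 peaked at day 15, 5 in control cells, 2 in Opt. VPA cells, 2 in Em+ cells, 1 in Em- cells and 1 in FBS/KSR cells. By the rule, the 4 libraries kept under 1 FPKM could hold no peak. Over the 9 libraries outside the rule, 38 of the genes were highest in OG+ cells and 12 on day 15. No like count was made over all genes. Of the 65, 19 were at 1 FPKM or more in all 9 libraries outside the rule.

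**Figure D1:**
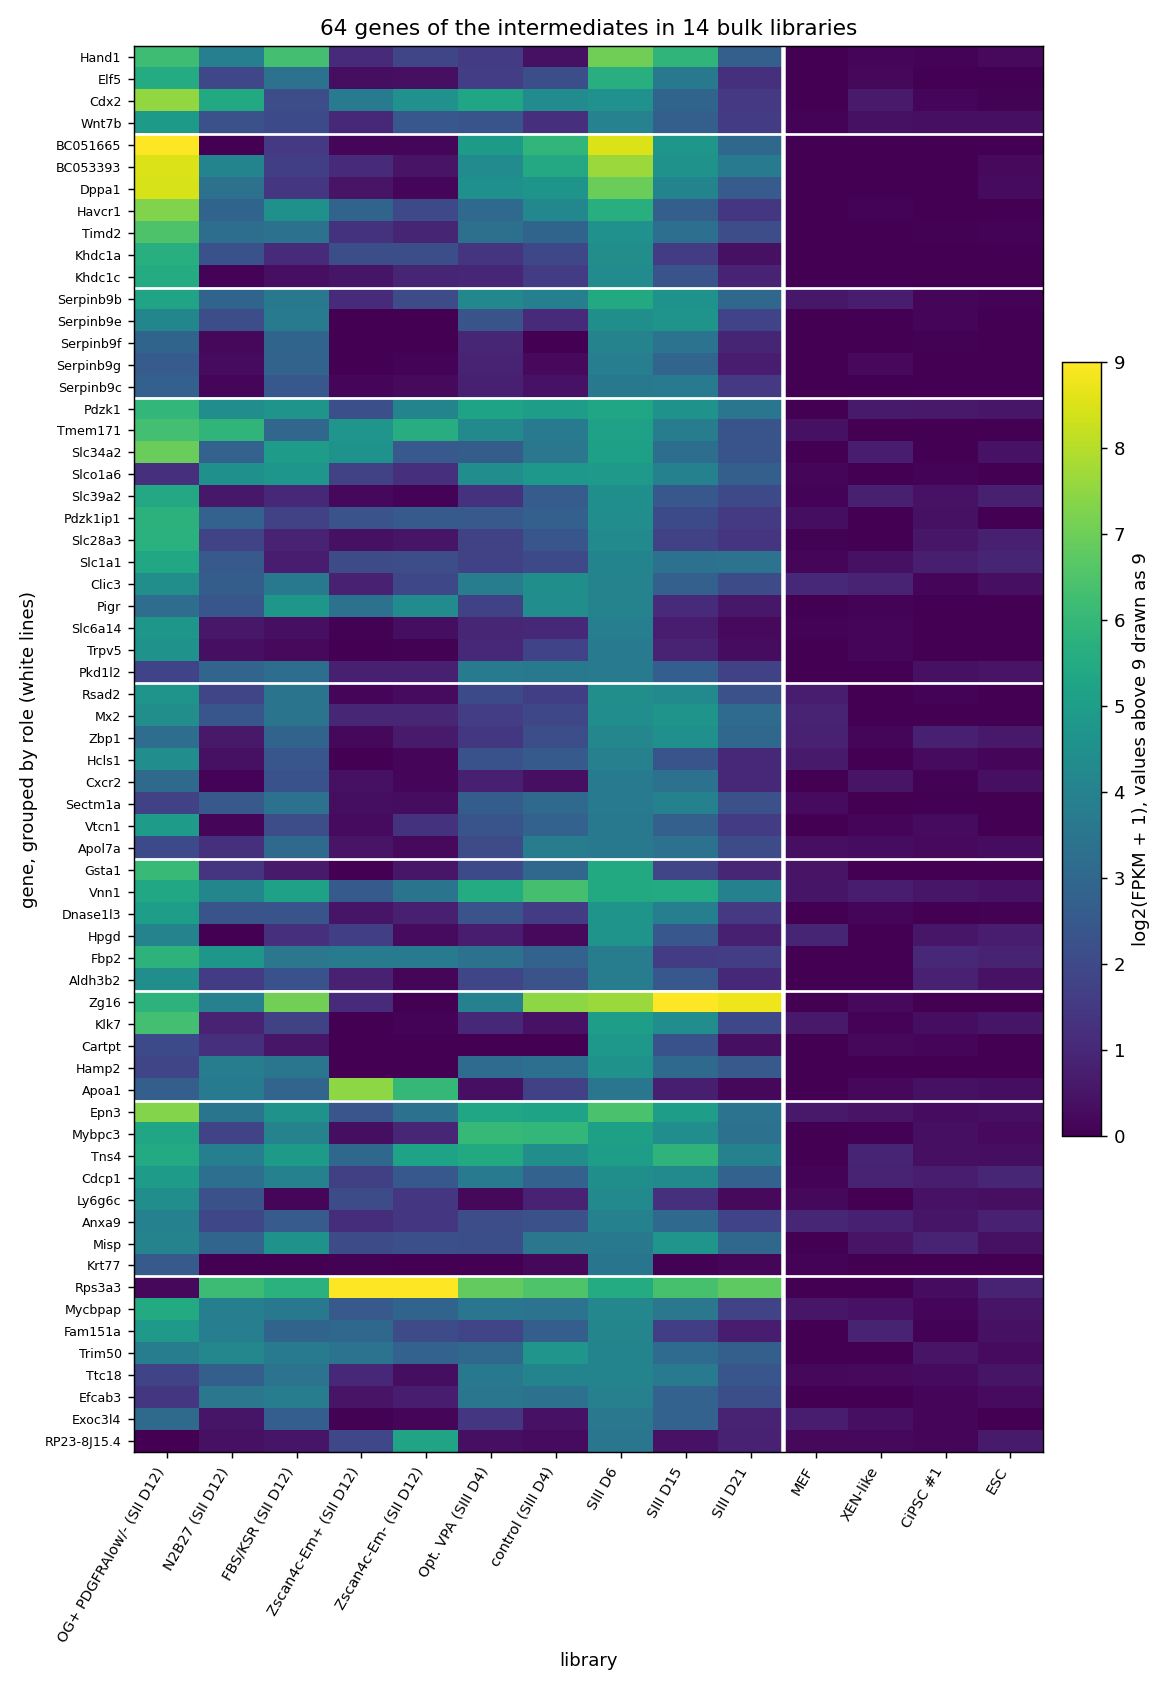
Levels of 64 of the 65 genes, as log2(FPKM + 1) by colour, in rows grouped by role and in columns of 1 library each (10 intermediate libraries left of the white vertical line, the 4 libraries that the rule kept under 1 FPKM right of it). OG+ cells and day 6 hold the brightest columns, and the Em+ and Em- columns are dark in most rows.

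In the plot of all levels, no row is bright everywhere among the intermediates, and the rows of a role often share a pattern. Near the thresholds the values were continuous. Just inside 10 FPKM at day 6 were Krt77 at 10.3, RP23-8J15.4 at 10.4 and Apoa1 at 10.6, and just outside were Gal3st2 at 9.89, Phgr1 at 9.52 and Hpx at 9.23. Just inside the limit of 1 FPKM were Clic3 with 0.990 in fibroblasts, Fbp2 with 0.985 in CiPSCs and Anxa9 with 0.938 in fibroblasts. Just outside it were Klk6 with 1.00 in fibroblasts, Fxyd4 with 1.02 in CiPSCs and Dmkn with 1.08 in fibroblasts, although Dmkn reached 125 FPKM at day 6. Within the 4 libraries of the low limit, 34 of the 65 genes were at 0 in fibroblasts, 28 in XEN-like cells, 21 in CiPSCs and 26 in embryonic stem cells.

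Regulators and signals numbered 4, and they did not share a profile. Hand1, a basic helix-loop-helix factor needed for trophoblast giant cells and heart, stood at 73.2 FPKM in OG+ cells, 13.6 in N2B27 cells and 78.1 in FBS/KSR cells. It stood at 1.12 FPKM in Em+ cells and 2.64 in Em- cells. At day 4 of stage III it was near the detection limit, with 1.93 FPKM in Opt. VPA cells and 0.335 in control cells, before 133, 58.1 and 5.69 FPKM at days 6, 15 and 21. Hand1 was thus highest at day 6 and, within stage III, lowest in the day 4 pair. Elf5, an ETS factor of trophoblast stem cells, stood at 45.6 FPKM in OG+ cells, 2.79 in N2B27 cells and 9.37 in FBS/KSR cells, and at 0.263 FPKM in Em+ cells and 0.294 in Em- cells. It had 2.12 FPKM in Opt. VPA cells and 3.47 in control cells, then 49.2, 11.5 and 1.33 FPKM at days 6, 15 and 21. Its highest values were in OG+ cells and at day 6. Cdx2, the homeobox factor of trophectoderm and intestine, had 187 FPKM in OG+ cells, 43.2 in N2B27 cells and 3.38 in FBS/KSR cells. Levels of Cdx2 were 12.3 FPKM in Em+ cells and 22.3 in Em- cells, 38.9 FPKM in Opt. VPA cells and 19.4 in control cells, and 22.3, 6.53 and 1.79 FPKM at days 6, 15 and 21. Cdx2 was thus lowest among stage II libraries in FBS/KSR cells, where Hand1 was highest. Wnt7b, a Wnt ligand required for the joining of chorion and allantois, had 29.0 FPKM in OG+ cells, 3.72 in N2B27 cells and 3.06 in FBS/KSR cells. For Wnt7b the reporter pair gave 1.04 FPKM in Em+ cells and 4.49 in Em- cells, the day 4 pair gave 4.10 FPKM in Opt. VPA cells and 1.37 in control cells, and stage III gave 14.7, 5.58 and 2.00 FPKM at days 6, 15 and 21. In the 4 libraries of the low limit, Hand1 reached at most 0.16, Elf5 0.15, Cdx2 0.574 and Wnt7b 0.31 FPKM.

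**Figure D2:**
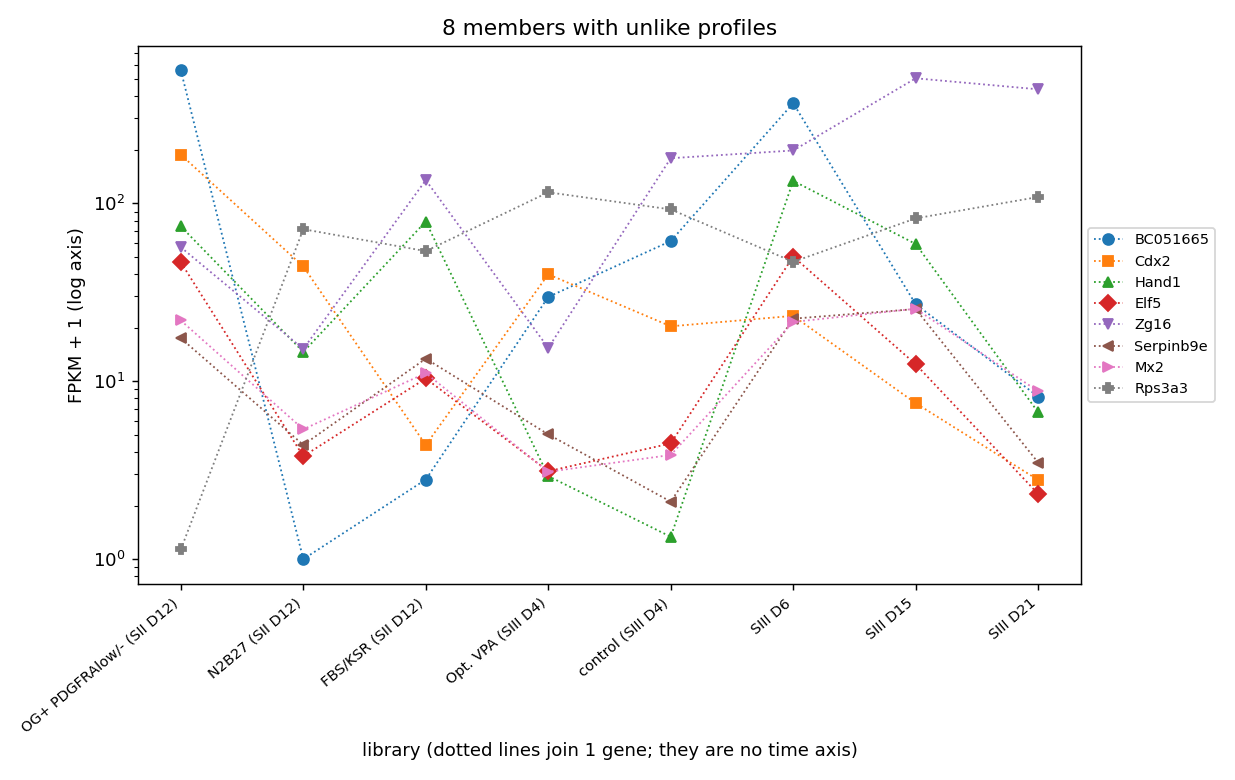
FPKM + 1 on a log axis for 8 of the genes in 8 libraries, 1 point per gene and library; dotted lines join the points of a gene and are no time axis. BC051665, Cdx2 and Elf5 stand high in OG+ cells, Zg16 is highest on days 15 and 21, Hand1 is low in the day 4 pair, and Rps3a3, at 45.9 FPKM or more in the 7 other libraries drawn, is at 0.133 FPKM in OG+ cells.

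The plot of 8 profiles shows that genes picked by the same rule were on in different libraries. The 4 genes of the chromosome 11 run were highest in OG+ cells. BC053393, for which no role is given here, had 371 FPKM in OG+ cells, 15.7 in N2B27 cells and 2.17 in FBS/KSR cells. Its other values were 1.09 FPKM in Em+ cells and 0.4 in Em- cells, 19.4 FPKM in Opt. VPA cells and 42.1 in control cells, and 200.2, 23.9 and 11.7 FPKM at days 6, 15 and 21. Dppa1, named as a developmental pluripotency associated gene, had 354 FPKM in OG+ cells, 9.36 in N2B27 cells and 1.66 in FBS/KSR cells, with 0.388 FPKM in Em+ cells and 0.109 in Em- cells. It had 21.7 FPKM in Opt. VPA cells and 24.1 in control cells, and 125, 15.7 and 5.07 FPKM at days 6, 15 and 21. Despite its name it was at most 0.204 FPKM in the pluripotent lines and the other low libraries. Havcr1, a receptor for phosphatidylserine known as a marker of kidney injury, had 155 FPKM in OG+ cells, 6.40 in N2B27 cells and 22.1 in FBS/KSR cells. It also had 6.46 FPKM in Em+ cells and 2.93 in Em- cells, 7.50 FPKM in Opt. VPA cells and 17.6 in control cells, and 49.8, 5.56 and 1.67 FPKM at days 6, 15 and 21. Timd2, a receptor for ferritin in the mouse, had 89.4 FPKM in OG+ cells, 8.54 in N2B27 cells and 9.14 in FBS/KSR cells, and 22.4, 8.82 and 3.42 FPKM at days 6, 15 and 21. BC053393 and Dppa1 were higher in N2B27 than in FBS/KSR cells, Havcr1 was lower there, and Timd2 was close to equal.

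**Figure D3:**
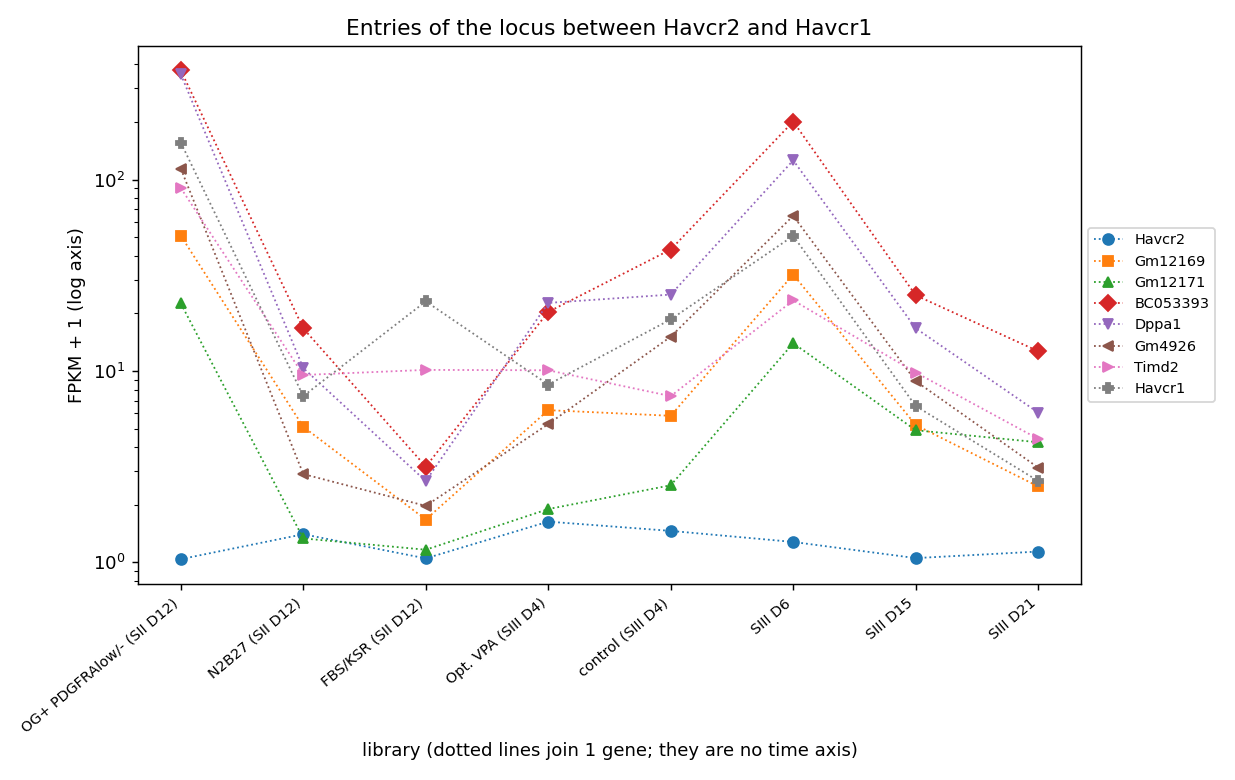
FPKM + 1 on a log axis for 8 entries between Havcr2 and Havcr1 on chromosome 11 in 8 libraries; dotted lines join the points of an entry and are no time axis. Of the entries drawn, all but Havcr2, which stays under 1 FPKM, stand highest in OG+ cells, with a lower peak at day 6.

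Between Havcr2 and Havcr1 (46454931 to 46779578, 324.6 kb) RefSeq lists 10 entries, and all 10 are in the table. As the plot of this locus shows, high levels in OG+ cells were not limited to the 4 genes above. Gm12169, Gm12171 and Gm4926 also met the FPKM thresholds, so 7 of 10 entries did. Gm4926, annotated as a transcribed pseudogene, had 113 FPKM in OG+ cells, 1.89 in N2B27 cells and 63.7 at day 6. Against N2B27 cells, 8 of the 10 entries were at least 2-fold higher in OG+ cells on the log2(FPKM+1) scale, where 12.0% of all genes tested were. They were the 7 that met the FPKM thresholds and Rpl9-ps2, with 1.29 FPKM in OG+ cells and 0 in N2B27 cells. The stretch was drawn around the 4 members, and most of the entries counted met the thresholds of the rule, so the count is a description only. Havcr2 and Gm12174 were under 1 FPKM in both libraries and thus not among the genes tested. Gm12174 had 0.130 FPKM in OG+ cells, 0.258 at day 6 and 1.14 in Em- cells. Rpl9-ps2 and Gm12174 are not drawn. Havcr2, at the edge of the run and known as an immune checkpoint receptor, reached at most 0.634 FPKM in any library.

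BC051665 gave the highest value of any of the 65 genes both in OG+ cells and at day 6, with 558 FPKM in OG+ cells, 0 in N2B27 cells and 1.80 in FBS/KSR cells. It had 0.102 FPKM in Em+ cells and 0.0861 in Em- cells, 28.8 FPKM in Opt. VPA cells and 60.4 in control cells, and 365, 26.1 and 7.20 FPKM at days 6, 15 and 21, and it was at 0 in all 4 low libraries. No read of it was seen in N2B27 cells, where 3 of 7538760 reads would be the limit that a count of 0 allows. Its neighbour Ctsll3, a cathepsin-like gene left out by its symbol, followed it with 289 FPKM in OG+ cells, 0 in N2B27 cells and 247 at day 6. In the same 340.2 kb, Tpbpa and Tpbpb, markers of the spongiotrophoblast, stayed at or under 4.05 FPKM throughout. Over the 9 libraries outside the rule, the members with profiles most like BC051665 were Slc39a2 (Pearson's r 0.94), Vtcn1 (0.93) and Epn3 (0.92). These correlations describe 9 points that include the OG+ library, and they carry no test. Khdc1a and Khdc1c, KH-domain genes known from oocytes and early embryos, are neighbours on chromosome 1 and stood at 20.7 and 19.2 FPKM at day 6. Khdc1c had 45.6 FPKM in OG+ cells, 0.0682 in N2B27 cells and 0.302 in FBS/KSR cells, with 0.424 FPKM in Em+ cells and 0.891 in Em- cells. It had 0.977 FPKM in Opt. VPA cells and 1.95 in control cells, and 19.2, 3.90 and 0.88 FPKM at days 6, 15 and 21. Khdc1a was at 48.4 FPKM in OG+ cells and between 0.308 and 3.81 in the other 8 libraries outside the rule.

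The 5 Serpinb9 genes were at 5.02 to 37.0 FPKM in OG+ cells, at 0.103 to 6.44 in N2B27 cells and at 4.42 to 12.4 in FBS/KSR cells. Serpinb9b had 37.0 FPKM in OG+ cells, 6.44 in N2B27 cells and 11.4 in FBS/KSR cells, then 43.0, 23.6 and 7.22 FPKM at days 6, 15 and 21. It also had 17.6 FPKM in Opt. VPA cells and 13.7 in control cells, and 1.10 FPKM in Em+ cells and 3.20 in Em- cells. It was the member of this group detected in every intermediate library. Serpinb9e had 16.5 FPKM in OG+ cells, 3.39 in N2B27 cells and 12.4 in FBS/KSR cells, 0 in both cells of the reporter pair, 4.03 FPKM in Opt. VPA cells and 1.11 in control cells, and 21.5, 24.5 and 2.49 FPKM at days 6, 15 and 21. For Serpinb9f the values were 6.38 FPKM in OG+ cells, 0.139 in N2B27 cells and 6.53 in FBS/KSR cells, 0.933 FPKM in Opt. VPA cells and 0 in control cells, and 15.3, 9.63 and 0.896 FPKM at days 6, 15 and 21, with 0 in the reporter pair. Serpinb9g had 5.02 FPKM in OG+ cells, 0.207 in N2B27 cells and 6.30 in FBS/KSR cells, 0.805 FPKM in Opt. VPA cells and 0.158 in control cells, and 13.49, 6.73 and 0.637 FPKM at days 6, 15 and 21. Serpinb9c had 5.77 FPKM in OG+ cells, 0.103 in N2B27 cells and 4.42 in FBS/KSR cells, 0.739 FPKM in Opt. VPA cells and 0.353 in control cells, and 11.4, 12.2 and 1.81 FPKM at days 6, 15 and 21. In the reporter pair, Serpinb9g had 0 FPKM in Em+ cells and 0.0602 in Em- cells, and Serpinb9c had 0.107 FPKM in Em+ cells and 0.18 in Em- cells. On day 4 the other 4 genes of the group reached at most 4.03 FPKM, and Serpinb9c and Serpinb9e were as high on day 15 as on day 6. Serpinb9d, which missed the day 6 threshold at 8.73 FPKM, had a like course with 7.42 at day 15 and 0.49 at day 21.

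Transporters and proteins of the apical membrane were the largest group, with 13 genes at 11.9 to 38.2 FPKM on day 6. Pdzk1, a scaffold that holds transporters at the brush border, had 61.2 FPKM in OG+ cells, 20.2 in N2B27 cells and 24.2 in FBS/KSR cells. It had 3.63 FPKM in Em+ cells and 15.7 in Em- cells, 35.9 FPKM in Opt. VPA cells and 31.5 in control cells, and 38.2, 23.2 and 10.4 FPKM at days 6, 15 and 21, so it was present in every intermediate. Tmem171, a membrane protein, had 77.4 FPKM in OG+ cells, 58.9 in N2B27 cells and 6.91 in FBS/KSR cells, 24.6 FPKM in Em+ cells and 47.8 in Em- cells, 18.9 FPKM in Opt. VPA cells and 12.5 in control cells, and 34.2, 12.9 and 4.06 FPKM at days 6, 15 and 21. Slc34a2, the sodium-phosphate carrier of gut and lung, had 121 FPKM in OG+ cells, 6.15 in N2B27 cells and 29.7 in FBS/KSR cells. Its other values were 23.4 FPKM in Em+ cells and 4.71 in Em- cells, 5.23 FPKM in Opt. VPA cells and 10.9 in control cells, and 33.8, 8.56 and 4.07 FPKM at days 6, 15 and 21. Slc34a2 was the only one of these 3 with more RNA in Em+ than in Em- cells. Slco1a6, an organic anion carrier of kidney, ran the other way in the sort, with 1.35 FPKM in OG+ cells, 21.9 in N2B27 cells and 25.6 in FBS/KSR cells. It had 2.41 FPKM in Em+ cells and 1.38 in Em- cells, 20.1 FPKM in Opt. VPA cells and 26.8 in control cells, and 28.1, 14.4 and 5.56 FPKM at days 6, 15 and 21. Pigr, the receptor that carries IgA across epithelia, had 8.23 FPKM in OG+ cells, 4.30 in N2B27 cells and 25.9 in FBS/KSR cells, 9.52 FPKM in Em+ cells and 19.2 in Em- cells, 2.46 FPKM in Opt. VPA cells and 20.2 in control cells, and 15.3, 1.10 and 0.478 FPKM at days 6, 15 and 21. Pigr was therefore higher in Em-, FBS/KSR and control cells than at day 6.

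Slc28a3, a nucleoside carrier, had 52.9 FPKM in OG+ cells, 2.59 in N2B27 cells and 0.862 in FBS/KSR cells, with 0.313 FPKM in Em+ cells and 0.42 in Em- cells. It had 2.43 FPKM in Opt. VPA cells and 4.27 in control cells, and 18.7, 2.37 and 1.61 FPKM at days 6, 15 and 21. Slc6a14, a carrier of neutral and cationic amino acids, had 25.9 FPKM in OG+ cells, 0.502 in N2B27 cells and 0.286 in FBS/KSR cells, with 0.04 FPKM in Em+ cells and 0.269 in Em- cells. It had 0.935 FPKM in Opt. VPA cells and 1.01 in control cells, and 13.9, 0.614 and 0.178 FPKM at days 6, 15 and 21. Both were highest in OG+ cells and at day 6, and elsewhere Slc28a3 reached at most 4.27 and Slc6a14 at most 1.01 FPKM. Trpv5, the calcium channel of the kidney tubule, behaved alike with 23.5 FPKM in OG+ cells, 12.0 at day 6 and at most 2.51 in the other 8 intermediates. Slc39a2, a zinc carrier, stood at 21.6 FPKM on day 6 and 42.1 in OG+ cells. Pdzk1ip1, a partner of Pdzk1, stood at 20.1 on day 6 and 53.5 in OG+ cells. Slc1a1, a glutamate carrier, had 15.5 on day 6 and kept 9.23 on day 15 and 9.66 on day 21. Clic3, a chloride channel family member, had 15.4, and Pkd1l2, a polycystin-like protein, had 11.9 FPKM on day 6.

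Of the 8 genes with immune roles, 3 are interferon targets. Rsad2 (viperin, an antiviral enzyme) had 24.1 FPKM in OG+ cells, 2.65 in N2B27 cells and 9.98 in FBS/KSR cells, and 0.0983 FPKM in Em+ cells and 0.207 in Em- cells. It had 3.10 FPKM in Opt. VPA cells and 2.17 in control cells, and 21.0, 18.7 and 3.67 FPKM at days 6, 15 and 21. Mx2 is an antiviral GTPase that RefSeq annotates as a transcribed pseudogene in GRCm38.p6. Mx2 had 21.0 FPKM in OG+ cells, 4.37 in N2B27 cells and 10.1 in FBS/KSR cells, and 0.971 FPKM in Em+ cells and 0.952 in Em- cells. It had 2.10 FPKM in Opt. VPA cells and 2.85 in control cells, and 20.5, 24.6 and 7.78 FPKM at days 6, 15 and 21. Zbp1, a sensor of Z-form nucleic acids, had 8.21 FPKM in OG+ cells, 0.523 in N2B27 cells and 6.38 in FBS/KSR cells, 0.136 FPKM in Em+ cells and 0.57 in Em- cells, 1.76 FPKM in Opt. VPA cells and 3.51 in control cells, and 16.8, 21.97 and 7.0 FPKM at days 6, 15 and 21. All 3 were under 1 FPKM in the reporter pair, and Mx2 and Zbp1 were higher at day 15 than at day 6. Hcls1, an actin regulator of blood cells, stood at 14.3 FPKM on day 6, and Cxcr2, a chemokine receptor of neutrophils, at 12.5. Sectm1a had 12.2 and Apol7a, of the apolipoprotein L family, 11.5 on day 6. Vtcn1, an inhibitory ligand of T cells, had 11.6 on day 6 and 30.1 in OG+ cells. Beside these genes, 16 leukocyte markers summed to 188.0 FPKM in OG+ cells, 105.9 in N2B27 cells and 216.7 at day 6. The pan-leukocyte marker Ptprc was at 0 in these 3 libraries and on days 15 and 21. Other markers of this list were on. Csf1r had 6.83 FPKM in OG+ cells, 0.402 in N2B27 cells and 11.6 at day 6. Cd68 had 122 FPKM in OG+ cells, 27.1 in N2B27 cells and 67.4 at day 6. Kit was the highest gene of the list in N2B27 cells, at 56.6 FPKM, and at day 6, at 88.5 FPKM. It stood at 230.1 FPKM in XEN-like cells, where the whole list summed to 242.0 FPKM. Of 9 leukocyte markers tested, 4 were at least 2-fold higher in OG+ than in N2B27 cells and 1 was lower. Over all genes tested, 12.0% were higher and 12.0% lower.

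The 6 enzymes stood between 12.8 and 43.6 FPKM on day 6. Gsta1, a glutathione transferase, had 43.6 FPKM on day 6, 68.3 in OG+ cells and at most 7.20 elsewhere. Vnn1, a pantetheinase, was detected in all intermediates, with 42.8 on day 6 and its highest value, 80.1, in control cells of day 4. The later values of Vnn1 were 44.6 and 14.7 FPKM on days 15 and 21. Hpgd, which breaks down prostaglandins, had 15.4 FPKM in OG+ cells, 0 in N2B27 cells and 1.29 in FBS/KSR cells, 2.16 FPKM in Em+ cells and 0.202 in Em- cells, 0.622 FPKM in Opt. VPA cells and 0.176 in control cells, and 24.0, 4.50 and 0.712 FPKM at days 6, 15 and 21. Dnase1l3, a secreted nuclease, had 24.5 on day 6. Fbp2, the fructose bisphosphatase of muscle, had 12.9 there but 56.0 in OG+ cells and 26.3 in N2B27 cells. Aldh3b2, an aldehyde dehydrogenase, had 12.8 on day 6.

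Secreted products included the gene with the highest level of the 65 on days 15 and 21. Zg16, a lectin of secretory granules in pancreas and gut, had 55.7 FPKM in OG+ cells, 14.2 in N2B27 cells and 134 in FBS/KSR cells, 1.08 FPKM in Em+ cells and 0 in Em- cells, 14.4 FPKM in Opt. VPA cells and 178 in control cells, and 197, 504 and 437 FPKM at days 6, 15 and 21. In contrast to most of the 65 genes, Zg16 was higher at day 15 than in any other library, and it still led the set at day 21. Klk7, a kallikrein protease, had 79.1 FPKM in OG+ cells, 0.836 in N2B27 cells and 2.36 in FBS/KSR cells, 0 FPKM in Em+ cells and 0.0662 in Em- cells, 1.02 FPKM in Opt. VPA cells and 0.347 in control cells, and 32.4, 20.2 and 2.88 FPKM at days 6, 15 and 21. Klk7 was high in OG+ cells and from day 6 to day 15. Apoa1, the main protein of high-density lipoprotein and a product of visceral endoderm, had 5.57 FPKM in OG+ cells, 11.8 in N2B27 cells and 6.63 in FBS/KSR cells, 177 FPKM in Em+ cells and 62.1 in Em- cells, 0.29 FPKM in Opt. VPA cells and 2.40 in control cells, and 10.6, 0.687 and 0.149 FPKM at days 6, 15 and 21. Its maximum was in Em+ cells, and it passed the day 6 threshold narrowly. Cartpt, a neuropeptide precursor, was at 26.9 on day 6, at 0 in both day 4 libraries and both reporter libraries, and at most 3.86 elsewhere. Hamp2, of the hepcidin family, was at 23.3 on day 6 and at 2.67 in OG+ cells.

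Among 9 genes of the epithelial surface and cytoskeleton, Epn3, an epsin of endocytosis, had 159 FPKM in OG+ cells, 10.2 in N2B27 cells and 23.3 in FBS/KSR cells, 4.23 FPKM in Em+ cells and 9.18 in Em- cells, 39.4 FPKM in Opt. VPA cells and 36.7 in control cells, and 83.7, 31.5 and 9.79 FPKM at days 6, 15 and 21. Its maximum was in OG+ cells. Tns4, a tensin of focal adhesions, had 44.7 FPKM in OG+ cells, 13.7 in N2B27 cells and 29.2 in FBS/KSR cells, 7.20 FPKM in Em+ cells and 36.4 in Em- cells, 43.0 FPKM in Opt. VPA cells and 21.1 in control cells, and 31.7, 56.6 and 14.6 FPKM at days 6, 15 and 21, with its maximum at day 15. Mybpc3, known as a sarcomere protein of heart, stood at 33.6 on day 6 and higher on day 4, at 64.7 FPKM in Opt. VPA cells and 60.5 in control cells. Cdcp1, a surface substrate of Src kinases, had 21.4, Ly6g6c 18.6, Anxa9 (an annexin) 14.5 and Misp (a spindle and actin protein) 11.5 FPKM on day 6. Krt77, a keratin, was at 10.3 on day 6, 4.92 in OG+ cells and at most 0.155 in every other library, so its presence rests on the same 2 libraries as that of Slc6a14.

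The last 8 genes share no role. Rps3a3, annotated as a pseudogene and named as a copy of a ribosomal protein gene, had 0.133 FPKM in OG+ cells, 70.6 in N2B27 cells and 52.9 in FBS/KSR cells, 770.0 FPKM in Em+ cells and 518 in Em- cells, 114 FPKM in Opt. VPA cells and 91.5 in control cells, and 45.9, 81.3 and 108 FPKM at days 6, 15 and 21. It was the reverse of BC051665, with 1 read in OG+ cells, and its reads cannot be separated here from those of near-identical copies. RP23-8J15.4, which no reference used here annotates, had 0 FPKM in OG+ cells, 0.339 in N2B27 cells and 0.418 in FBS/KSR cells, 2.81 FPKM in Em+ cells and 37.5 in Em- cells, 0.304 FPKM in Opt. VPA cells and 0.193 in control cells, and 10.4, 0.359 and 0.782 FPKM at days 6, 15 and 21. It was on in Em- cells and at day 6. Efcab3 had 1.66 FPKM in OG+ cells, 10.9 in N2B27 cells and 12.6 in FBS/KSR cells, 0.38 FPKM in Em+ cells and 0.638 in Em- cells, 10.6 FPKM in Opt. VPA cells and 9.49 in control cells, and 14.2, 6.08 and 3.49 FPKM at days 6, 15 and 21, and was low in OG+ cells. Mycbpap, whose gene lies 1.37 kb from Epn3 on chromosome 11, had 17.1 FPKM on day 6. Fam151a had 16.0, Trim50 (a ubiquitin ligase of stomach) 15.8, Ttc18 (also Cfap70, of motile cilia) 15.7 and Exoc3l4 11.1 on day 6.

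OG+ cells against N2B27 cells at stage II day 12 ask which genes mark the sorted intermediate. BC051665 was at least 1882-fold higher in OG+ cells, with the floor of 3 reads in N2B27 cells. Dppa1 was 37.8-fold higher (30.1 to 48.2), BC053393 23.7-fold higher (20.8 to 27.02) and Havcr1 24.2-fold higher (19.3 to 30.8). Ranges after a fold are 95% exact binomial counting intervals of the FPKM ratio, which, like the floors, cover counting error only. Klk7 was 94.6-fold higher (52.7 to 190.0), from 11 reads in N2B27 cells. Khdc1c was 669-fold higher (119.8 to 26458), from 1 read there. Slc34a2 was 19.6-fold higher (16.1 to 24.3) and Cdx2 4.32-fold higher (4.00 to 4.68). In the other direction, Rps3a3 was 529-fold lower (94.5 to 20950.0), Slco1a6 16.2-fold lower (9.73 to 28.8) and Efcab3 6.55-fold lower (3.87 to 11.7), and Hamp2 and Pkd1l2 were also called lower. The Rps3a3 value rests on 1 read in OG+ cells, and its reads cannot be separated here from those of near-identical copies.

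A call here means a difference of at least 2-fold on the log2(FPKM+1) scale in a gene at 1 FPKM or more in either library. By it, 50 of the 65 genes were higher in OG+ cells and 5 lower, where 12.0% of all 14348 genes tested were called higher and 12.0% lower. The median log2 difference of the 64 genes tested was 2.58, against -0.06 over all genes tested. All 7 genes of the chromosome 11, Khdc1 and BC051665 group were higher, as were all 5 Serpinb9 genes, all 4 regulators, all 6 enzymes, all 9 epithelial genes, 6 of 8 immune genes, 9 of 13 transport genes, 2 of 5 secreted genes and 2 of 8 others. With FBS/KSR cells as the base, a choice made after seeing the data because the medium of the sorted cells is not given, 39 genes were higher and 10 lower, where 12.8% of all genes tested were called higher and 8.79% lower. On that base all 7 genes of the chromosome 11, Khdc1 and BC051665 group were again higher, but only 1 of 5 Serpinb9 genes was. Of the 8 immune genes 3 were higher and 2 lower, and of the 5 secreted genes 2 were higher and 2 lower. Higher too were 3 of 4 regulators, 5 of 6 enzymes and 7 of 9 epithelial genes. Of 13 transport genes 9 were higher and 3 lower, and of 8 others 2 were higher and 3 lower. Zg16 changed sides, 3.93-fold higher (3.02 to 5.17) against N2B27 cells and 2.41-fold lower (2.13 to 2.72) against FBS/KSR cells, and Hand1 was at 73.2 FPKM in OG+ cells and 78.1 in FBS/KSR cells.

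Wider lists of related genes also stood apart in this pair. Of 25 trophoblast transcription factors, which include Cdx2, Elf5 and Hand1, 18 were higher and 2 lower, and their summed level was 2078 FPKM in OG+ cells and 568 in N2B27 cells. Gata3, a factor of trophectoderm that is no member, stood at 266 FPKM in OG+ cells and 2.46 in N2B27 cells. Of 30 interferon response genes, with Rsad2, Mx2 and Zbp1 among them, 28 were tested, 26 were higher and 0 lower. Of 36 placental products 26 were tested, 11 were higher and 3 lower. Of 43 squamous epithelial genes 27 were tested, 9 were higher and 8 lower. Markers of other cells differed as well. Of 12 fibroblast markers, 8 were at 1 FPKM or more in OG+ cells and all 12 in N2B27 cells, with sums of 43.3 FPKM in OG+ cells and 134.8 in N2B27 cells. Their part in the result was not tested.

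N2B27 against FBS/KSR cells sets the 2 stage II conditions side by side. Cdx2 was 12.8-fold higher (10.5 to 15.6) in N2B27 cells, Tmem171 8.52-fold higher (6.87 to 10.6) and BC053393 7.24-fold higher (5.50 to 9.64). Dppa1 was 5.64-fold higher (3.59 to 9.10), Slc1a1 7.81-fold higher (4.73 to 13.49) and Ly6g6c 42.6-fold higher (6.85 to 1762), the last from 1 read in FBS/KSR cells. Lower in N2B27 cells were Serpinb9f, 47.1-fold lower (12.9 to 391), Serpinb9g, 30.4-fold lower (10.2 to 149), and Zg16, 9.45-fold lower (7.40 to 12.2). Hand1 was 5.74-fold lower (4.82 to 6.87), Elf5 3.36-fold lower (2.32 to 5.00) and Zbp1 12.2-fold lower (6.07 to 28.7). Serpinb9f had 2 reads and Serpinb9g 3 reads in N2B27 cells, which makes their intervals wide.

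In this pair 10 of the 65 genes were called higher in N2B27 cells and 25 lower, where 10.7% of all genes tested were called higher and 7.30% lower. The median log2 difference was -0.70 for the 60 genes tested and 0.07 for all genes. Of the 5 Serpinb9 genes, 4 were lower, and of the 8 immune genes 7 were lower. Among 30 interferon response genes, 29 were tested, 17 were lower and 1 higher in N2B27 cells. Of 25 trophoblast factors, all tested, 7 were lower and 3 higher. Squamous epithelial genes went the other way, with 12 higher and 3 lower of 24 tested on a list of 43. Detection itself differed, since of these conditions Gsta1, Cartpt, Slc28a3, Ly6g6c and Slc1a1 reached 1 FPKM in N2B27 cells alone, while 12 genes did so in FBS/KSR cells alone, BC051665, Klk7, Cxcr2, Vtcn1 and Hcls1 among them. Under 1 FPKM in both stood Khdc1c, Slc6a14, Trpv5, Krt77 and RP23-8J15.4, and all but the last were at 1 FPKM or more in OG+ cells. Fibroblast markers summed to 134.8 FPKM in N2B27 cells and 301.6 in FBS/KSR cells, and extraembryonic endoderm markers to 2287 FPKM in N2B27 cells and 7243 in FBS/KSR cells. Whether these cell types carry part of the difference was not tested. This pair shares the N2B27 library with the sorted pair above, so a low value there enters both.

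Opt. VPA against control cells asks what the treatment does on day 4 of stage III. Zg16 was 12.4-fold lower (9.79 to 15.9) with Opt. VPA, Pigr 8.23-fold lower (5.80 to 12.0) and Apol7a 4.12-fold lower (2.85 to 6.06). Trim50 was 3.44-fold lower (2.73 to 4.37) and BC051665 2.10-fold lower (1.82 to 2.42). Higher were Serpinb9e, 3.64-fold higher (2.02 to 7.03), Wnt7b, 2.99-fold higher (2.00 to 4.59), and Hand1, 5.75-fold higher (1.73 to 30.0), the last from 3 reads in control cells. Cdx2 had 38.9 FPKM in Opt. VPA cells and 19.4 in control cells, and BC053393 had 19.4 FPKM in Opt. VPA cells and 42.1 in control cells.

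Among the 65 genes, 3 were called higher with Opt. VPA and 11 lower, where 5.77% of all genes tested were called higher and 3.28% lower. The median log2 difference was -0.25 over the 56 genes tested and 0.12 over all genes. None of the 3 higher calls is left when a gene must reach 5 FPKM in either library, and the median was 0.10 for the 33 genes at 20 FPKM or more on day 6. Of 25 trophoblast factors on the wider list 24 were tested, 7 were higher and 1 lower. Of 36 placental products 27 were tested, 9 were higher and 2 lower. Genes of the 2-cell embryo summed to 170.7 FPKM with Opt. VPA and 62.7 in control cells, and fibroblast markers to 928 FPKM with Opt. VPA and 1087 in control cells. The part of other cell types in these differences was not tested.

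Em+ against Em- cells ask how the genes relate to the Zscan4c reporter. Slc34a2 was 4.97-fold higher (3.92 to 6.35) in Em+ cells, Apoa1 2.85-fold higher (2.55 to 3.19) and Hpgd 10.7-fold higher (3.30 to 55.2), the last from 3 reads in Em- cells. RP23-8J15.4 was 13.3-fold lower (8.06 to 23.7), Tns4 5.05-fold lower (4.03 to 6.39) and Pdzk1 4.32-fold lower (3.10 to 6.14). Zg16 had 5 reads in Em+ cells and 0 in Em- cells.

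Here 4 of the 65 genes were called higher in Em+ cells and 7 lower, where 8.37% of all genes tested were called higher and 5.15% lower. Of the 34 members tested these are 11.8% higher and 20.6% lower. The median log2 difference was -0.25 over the 34 genes tested and -0.04 over all genes, but 0.013 over members under 0.5 FPKM in the 4 low libraries. Of the 12 genes of the 2-cell embryo, none of them a member, 11 were tested, 10 were higher in Em+ cells and 0 lower. Of 25 trophoblast factors 23 were tested, 6 were lower in Em+ cells and 0 higher. Of 36 placental products 24 were tested, 8 were lower and 2 higher. The pair is of another strain and another starting cell than the other libraries, so its low member levels relative to them cannot be told apart from strain.

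Day 21 against day 15 follows the genes toward the end of stage III, in libraries that the rule did not use. The rule did ask for a high level at day 6 and under 1 FPKM in CiPSCs. A fall somewhere after day 6 was therefore built into the choice, and lower levels on day 21 are given as a description of its timing. Hand1 was 10.2-fold lower (7.86 to 13.47) on day 21, Serpinb9e 9.84-fold lower (7.05 to 14.1) and Serpinb9f 10.7-fold lower (6.18 to 20.2). Elf5 was 8.65-fold lower (5.19 to 15.3), Klk7 7.03-fold lower (5.04 to 10.0) and BC051665 3.62-fold lower (2.80 to 4.72). Mx2 was 3.16-fold lower (2.53 to 3.97) and Zbp1 3.14-fold lower (2.53 to 3.92). Zg16 barely differed, 1.15-fold lower (1.09 to 1.22), and Rps3a3 had 108 FPKM at day 21 and 81.3 at day 15.

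Of the 65 genes, 0 were called higher on day 21 and 42 lower, where 1.72% of all genes tested were called higher and 7.50% lower. The median log2 difference of the 60 genes tested was -1.37, against -0.07 over all genes. All 4 regulators, all 5 Serpinb9 genes and all 8 immune genes were lower, as were 6 of the 7 chromosome 11, Khdc1 and BC051665 genes, 7 of 9 epithelial genes and 4 of 6 enzymes. Of the transport group 3 of 13 were lower. At 10 FPKM or more on day 21 were still Zg16, Rps3a3, Vnn1, Tns4, BC053393 and Pdzk1. On wider lists, 21 of 30 interferon response genes, 7 of 25 trophoblast factors and 12 of 36 placental products were lower and 0 of any were higher. The numbers tested were 30 interferon response genes, 23 trophoblast factors and 26 placental products. Markers of other cell types differed too. Fibroblast markers summed to 470 FPKM on day 21 and 1056 on day 15, extraembryonic endoderm markers to 1698 on day 21 and 3611 on day 15. Naive pluripotency markers summed to 5162 on day 21 and 3356 on day 15. What share of the lower levels goes with these markers was not tested.

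**Figure D4:**
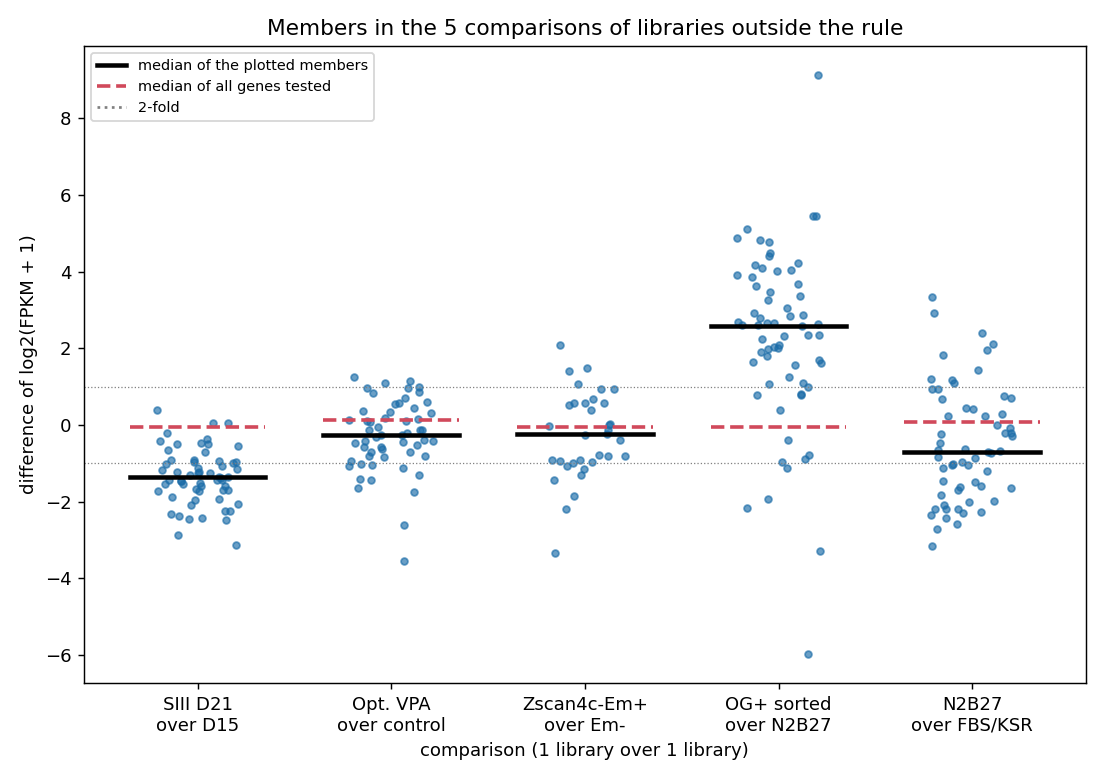
Difference of log2(FPKM + 1) in the 5 comparisons of libraries that the rule did not use, 1 point for each of the 65 genes that reached 1 FPKM in at least 1 library of the pair; black bars are their medians, red dashed bars the median of all genes tested, dotted lines a 2-fold difference. The genes stand mostly above 0 in OG+ over N2B27 cells (median 2.58) and mostly below 0 in day 21 over day 15 (median -1.37).

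The plot of differences in 5 comparisons shows the widest spread in the sorted pair, from Rps3a3 at -5.98 to BC051665 at 9.13 on the log2(FPKM+1) scale. Around day 6 itself, the rule fixed part of the outcome, and the counts are given without weight. Against N2B27 cells 51 of the 65 genes were higher at day 6 and 0 lower, where 9.99% of all genes tested were called higher and 8.98% lower. Against FBS/KSR cells 40 were higher and 0 lower, where 6.05% were called higher and 2.01% lower. At day 15 against day 6, 2 genes were higher, Zg16 and Misp, and 36 were lower, where 6.23% of all genes tested were called higher and 5.02% lower. The members lower at day 15 included all 7 of the chromosome 11, Khdc1 and BC051665 group and all 4 regulators, but none of the 5 Serpinb9 genes and 1 of the 8 immune genes, Hcls1.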

How the data were processed

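Bulk RNA was total RNA made into libraries with the NEBNext Ultra kit, per the labels' protocols. The authors deposited FPKM values for 14 bulk libraries and 35275 entries. The submitters' processing notes name the build mm10. The sources used here do not say which aligner and counter made these values or whether strand was used, so the division of reads among overlapping or duplicated genes is uncertain.

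Whole reads were recovered from ratios of the deposited FPKM values, for 23177 of 23178 entries above 0 in at least 2 libraries. They gave the library totals and the exact 95% binomial intervals of ratios. The recovery and the calls were tested on simulated data. Differences used log2(FPKM+1), which understates changes of low genes. With 1 library a group no test was run, and a call is a 2-fold difference in a gene at 1 FPKM or more in either library, counted over all genes. The intervals of ratios cover counting error only.

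The 65 members and all gene lists were chosen with earlier results of these data known. By the naming rule, the 40 highest at day 6 and all list members are named; the other members were added, and 1 member is not reported here. Values across libraries are given for the 10 highest, the 3 largest differences in each direction per comparison, the leaders of days 15 and 21, and list members. Coordinates and sequences are RefSeq's for GRCm38.p6. Analyses ran in Python 3.11.15 with pandas 2.3.3 and scipy 1.17.1. Alternatives changed the pseudocount, filter, scaling, call size, member thresholds and, added after seeing the data, the base of the sorted cells.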

Additional observations from a re-analysis of the deposited data

How the results depend on the processing

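Each value rests on 1 library a group, and cell makeup cannot be told apart from group. Genes under about 1 FPKM rest on few reads, and the division of reads among near copies such as the Serpinb9 genes is uncertain. No paired analysis was possible because each group is 1 library and the result comes from no test.

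Of the recomputed summary values, 257 stayed within their limits and 28 moved, and of values for single genes 98 stayed and 10 moved. For shares and medians, the limits are intervals over the members, which treat the genes as independent of each other. For counts of detected members, they are a fixed fold band set by choice. Neither kind of limit covers counting error or differences between replicates, so the tally of summary values does not measure robustness to measurement error. Among all recomputed values 2 changed sign, both medians: that for Opt. VPA against control cells with the 33 members at 20 FPKM or more at day 6, given below, and that for Em+ against Em- cells, which was 0.013 with members under 0.5 FPKM in the 4 low libraries and -0.25 with all members tested. In single values outside that set, Zg16 was 3.93-fold higher in OG+ than in N2B27 cells and 2.41-fold lower in OG+ than in FBS/KSR cells. With a pseudocount of 0.1 and 0.5 FPKM the median log2 difference was -1.64 and -1.55 for day 21 against day 15, and 3.00 and 2.88 for OG+ against N2B27 cells. Calls at 4-fold lowered the shares of the 65 genes. The share of all genes called at 4-fold was not computed, so the 4-fold shares below have no background beside them. For day 21 against day 15, 16.9% were then lower. For Opt. VPA against control cells, 0% were higher and 3.08% lower. In Em+ against Em- cells, 1.54% were higher and 3.08% lower. In OG+ against N2B27 cells, 60% were higher. In N2B27 against FBS/KSR cells, 6.15% were higher and 18.5% lower. For day 6, 60% were higher than in N2B27 cells and 35.4% higher than in FBS/KSR cells, and for day 15 against day 6, 0% were higher and 35.4% lower. Requiring 5 FPKM in either library left 0% higher with Opt. VPA. With the 33 members at 20 FPKM or more at day 6, the median for Opt. VPA against control cells was 0.10. With the 120 at 5 FPKM or more, 64.2% were higher in OG+ than in N2B27 cells, with a median of 1.99, and with all 91 symbols 18.7% were lower. With FBS/KSR cells as the base, 60% were higher in OG+ cells and the median was 1.73. At a threshold of 5 FPKM, 12 members were detected in Em+ cells, 14 in Em- cells, 30 in N2B27 cells, 28 in Opt. VPA cells and 19 on day 21. Scaling by median of ratios shifted the median of all genes by -0.11 for Opt. VPA against control cells, where 4.62% of the members were then higher and 18.5% lower.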

Other observations

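Of the 26 entries that met the FPKM thresholds but were left out by symbol, 23 were at 1 FPKM or more in OG+ cells, 18 in N2B27 cells, 20 in FBS/KSR cells, 26 on day 15 and 24 on day 21. Their median was 8.22 FPKM in OG+ cells, 4.03 in N2B27 cells and 12.5 in FBS/KSR cells, and 22.5, 12.2 and 3.33 FPKM at days 6, 15 and 21 of stage III. They were highest of all 14 libraries at day 6 in 8 cases, in OG+ cells in 6 and in control cells of day 4 in 6.

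Prl7a1 and Prl2c5, of the prolactin family of placental hormones, were listed at 0 in N2B27 cells and were clearly on in FBS/KSR cells. Prl7a1 had 26.3 FPKM in OG+ cells, 0 in N2B27 cells and 177 in FBS/KSR cells, and 328, 421 and 38.0 FPKM at days 6, 15 and 21. Prl2c5 had 14.9 FPKM in OG+ cells, 0 in N2B27 cells and 72.6 in FBS/KSR cells, and 178, 134 and 15.4 FPKM at days 6, 15 and 21. Both were thus highest within stage III, and Prl7a1 was higher on day 15 than on day 6. Gm10040, an unnamed gene model, was the highest of these entries at day 6, with 74.3 FPKM in OG+ cells, 468 in N2B27 cells and 409 in FBS/KSR cells, 714 FPKM in Opt. VPA cells and 896 in control cells, and 567, 242 and 105 FPKM at days 6, 15 and 21. Its highest level was in control cells of day 4. Gm10020 had its highest level in the reporter pair, 259 FPKM in Em+ cells and 178 in Em- cells, and 0.172 FPKM in OG+ cells.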
